A study of Drosophila melanogaster with 6 samples.

Results

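JAK-STAT signalling carries the message of secreted cytokines to the nucleus through a short chain of proteins. In the fly, ligands of the Unpaired family bind the receptor Domeless, the kinase Hopscotch phosphorylates the receptor and the transcription factor Stat92E, and Stat92E then enters the nucleus and activates genes, among them inhibitors of the same chain. The pathway is known in Drosophila for its control of blood cell number and differentiation, and S2 cells are a blood cell-like line derived from embryos. The genes described here were taken by name, not by any measured value: dome, hop, Stat92E, Socs36E, Ptp61F, Su(var)2-10 and et. Of these 7 genes, 6 were found by symbol among the 14869 gene identifiers of the count files, and all 6 were among the 8690 genes abundant enough to test. The current identifier of Ptp61F, a phosphatase gene, was not matched to an identifier in the files. The tables used here list no older identifiers, so whether the gene was counted under one was not checked, and Ptp61F was not analysed here.

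The libraries came from S2-DRSC cells kept in Schneider's medium with serum. JQ1, a competitive inhibitor of the bromodomains with which BET proteins such as fly FSH hold acetylated chromatin, was given at 10 µM for 1, 2, 4 or 20 h, and the solvent DMSO was given to control cells for 1 or 20 h. Polyadenylated RNA of each of these 6 conditions was sequenced as 1 library, so the DMSO group held 2 libraries and the JQ1 group 4, and no treatment time was repeated. The cells were a single untransfected line, and nothing in the labels says whether the libraries came from separate cultures, so p-values measure the spread between these libraries only.

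Reads assigned to genes numbered between 24547077 and 29823608 per library. Values below are scaled counts, that is, read counts divided by a factor set by the 100 genes most abundant in DMSO. On this scale most genes were lower with JQ1. The median log2 fold change of all tested genes was -0.54, -0.65, -0.81 and -0.59 in the JQ1 libraries of 1, 2, 4 and 20 h, against 0.05 between the DMSO libraries, and each change below was therefore also set against that median. In bulk RNA, a smaller number of cells of some kind and less RNA per cell cannot be told apart. All 6 blood cell genes examined (srp, Hml, Pxn, NimC1, eater and crq) were detected in every library, with a summed level of 263700 to 271200 scaled counts in DMSO and 238600 to 303300 in JQ1. Most of that sum was Pxn, itself one of the 100 scaling genes, and the members went both ways, with crq called lower (adjusted p-value 0.0257 in edgeR) and NimC1 at 483% of DMSO at 20 h. NimC1 was at 73.9%, 90.8% and 60.1% at 1, 2 and 4 h and was not called (adjusted p-value 0.463 in edgeR). Of 6 genes of neurons, germline and muscle, 3 were matched (elav, nSyb and up, none of the germline), and their sum, nearly all elav, was 633 to 641 in DMSO and 234 to 381 in JQ1, with nSyb at 120% to 194% of DMSO on 4 to 17 reads a library. In a newer annotation, 3667 of the 10715 exonic bases of elav overlap those of 2 other genes, 1 of them on the opposite strand. Within the blood cell list Hml was at 12722 and 13855 scaled counts in DMSO, at 12714 to 32870 in the JQ1 libraries of 1 to 4 h and at 129700 at 20 h, and the part of these marker genes in the values of the JAK-STAT genes was not tested.

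With JQ1, the genes for the kinase, hop, the transcription factor, Stat92E, and the SUMO ligase, Su(var)2-10, fell, with log2 fold changes of -0.73 ± 0.13, -1.01 ± 0.14 and -0.64 ± 0.13 (SE). Among the receptor-type genes, dome stood at 0.19 ± 0.20 and et at 0.49 ± 0.17 (SE), where the median of all tested genes was -0.63, and neither passed the threshold on this scale. The feedback inhibitor gene Socs36E, at -0.64 ± 0.28 (SE), did not pass either. In edgeR's quasi-likelihood test of the 4 JQ1 against the 2 DMSO libraries, 3 of the 6 genes were called lower at an adjusted p-value under 0.05, and 0 were called higher. Over all tested genes 44.3% were called lower and 1.43% higher, so the share of JAK-STAT genes called lower was near that background. At an unadjusted p under 0.05 in edgeR, 4 of the 6 passed, et among them, as did 4847 of the 8690 tested genes. The Wald test of DESeq2 called 3 lower and et higher, and over all tested genes 4344 lower and 166 higher. The 3 calls were lost without either control and under some scalings. Without the DMSO 1 h library their adjusted p-values in edgeR were 0.0649 to 0.0794, without that of 20 h 0.0811 to 0.115, with log2 fold changes close to those over all libraries (-1.01 and -1.02 for Stat92E, -0.75 and -0.71 for hop, -0.69 and -0.59 for Su(var)2-10). With TMM or DESeq2 size factors, which bring the median of all genes close to 0, 0 of the 6 genes were called lower. There 2 (dome and et) were called higher, and 3 had an unadjusted p under 0.05. Of 8677 genes, TMM gave 565 lower, 436 higher and 2980 at an unadjusted p under 0.05. Of 8678 genes, DESeq2 size factors gave 482, 460 and 2958. All 4 JQ1 libraries lay below both DMSO libraries in 4 of the 6 genes, as in 67.9% of all tested genes, and above both in 1 (et), as in 3.74%.

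**Figure D1:**
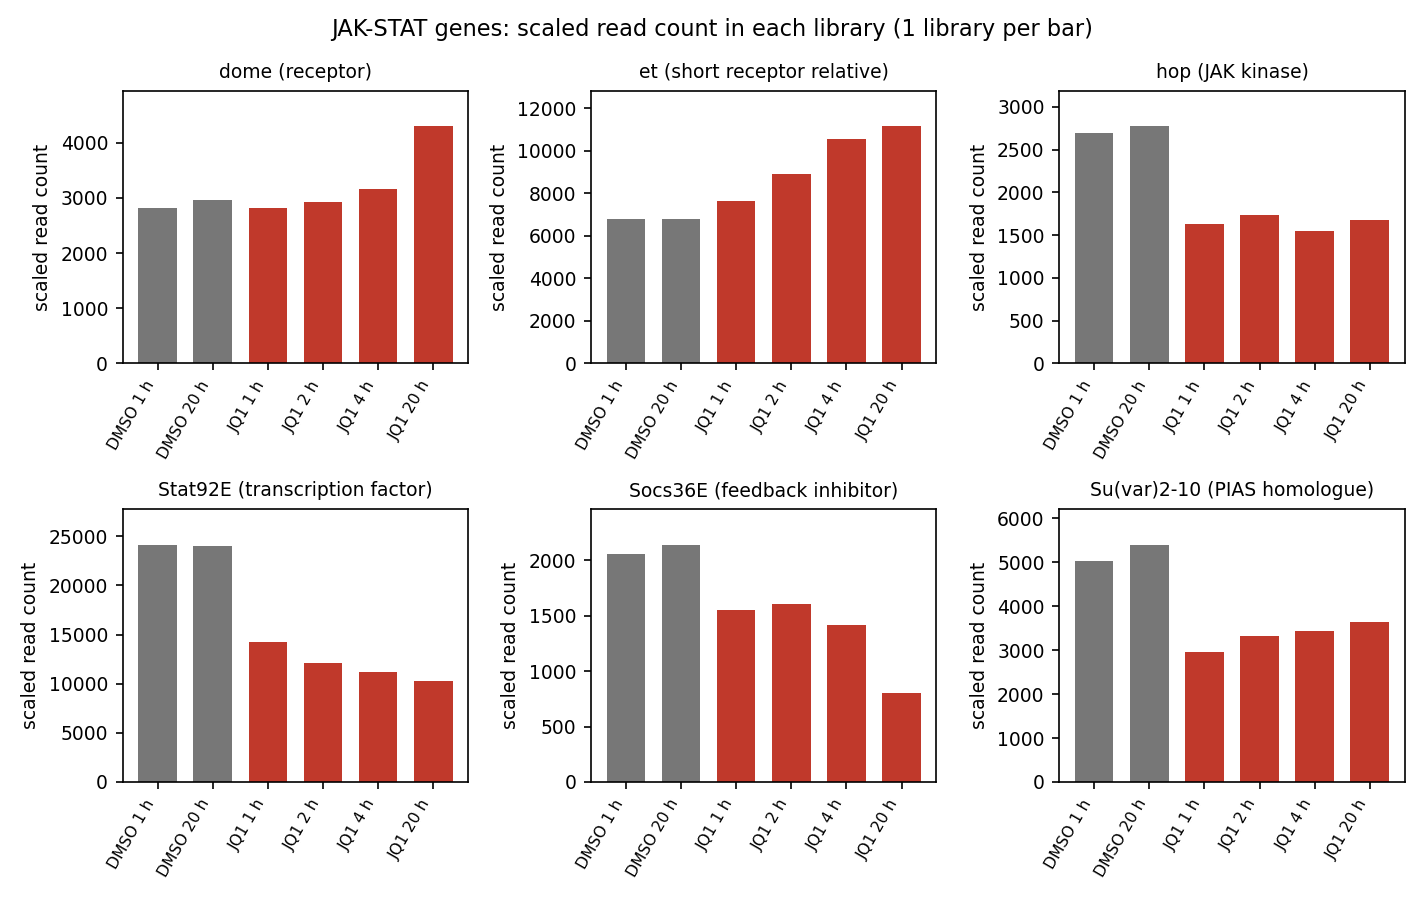
Scaled read count (y axis) of the 6 JAK-STAT genes in each of the 6 libraries (x axis), with DMSO in grey and JQ1 in red and 1 library per bar. The et bars stand between 6778 in DMSO 1 h and 11152 in JQ1 20 h, their highest, and those of Stat92E between 24147 in DMSO 1 h and 10225 in JQ1 20 h, their lowest.

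Levels were compared between genes per kilobase of exon. In DMSO, Stat92E was the most abundant, at 4625 ± 13.9 scaled counts per kilobase (SD, n = 2), followed by et at 2815 ± 5.05 and Su(var)2-10 at 1034 ± 53.8 (SD, n = 2). Socs36E (598 ± 17.5), dome (593 ± 19.9) and hop (541 ± 11.3; SD, n = 2) came last. Socs36E and dome did not differ beyond their spread, with 585.8 and 610.6 against 579.1 and 607.2 per kilobase in the libraries of 1 and 20 h, whereas hop was below both, at 533.1 and 549.1. In the JQ1 20 h library the order was another one. There et led at 4625 scaled counts per kilobase, Stat92E followed at 1962, then dome at 882, Su(var)2-10 at 721, hop at 332 and Socs36E at 229. These levels rest on exonic lengths of a newer annotation, from 2.411 kb for et to 5.21 kb for Stat92E.

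The receptor gene dome (FBgn0043903, chromosome X) encodes the only fly receptor known to transmit the Unpaired signal. Its scaled counts were 2823 in DMSO 1 h and 2960.2 in DMSO 20 h, and 2810 in JQ1 1 h, 2918.5 in 2 h, 3169 in 4 h and 4301 in 20 h. The JQ1 1 h library was thus just below the DMSO pair, that of 2 h lay within it, and those of 4 and 20 h were above it. Against the mean of both DMSO libraries, the log2 fold change was -0.04 at 1 h, with a counting interval of -0.10 to 0.03, and positive there under each of the 5 other scalings. It was 0.01 (-0.05 to 0.08) at 2 h, 0.13 (0.07 to 0.20) at 4 h and 0.57 (0.52 to 0.64) at 20 h. Relative to the median of all genes it was higher at every time, by 0.50, 0.66, 0.94 and 1.16, and at 20 h 91.9% of tested genes had a lower value. With DMSO 20 h as the sole control, JQ1 20 h gave 0.54 (0.47 to 0.61). Over all 6 libraries the adjusted p-value from edgeR was 0.444, and it was 0.0429 with TMM and 0.0434 with DESeq2 size factors.

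The gene et (eye transformer, FBgn0031055, chromosome X) lies next to dome and encodes a shorter receptor relative that has been found to associate with Domeless and to dampen the pathway in flies. Its scaled counts were 6778 and 6795 in DMSO, 7630 in JQ1 1 h, 8891 in 2 h, 10527 in 4 h and 11152 in 20 h. Every JQ1 library was above both DMSO libraries, and on this scale each later one was above the one before. The rise from 4 to 20 h was not kept with total counts as the scale. There et had 11430 of 26769735 gene reads in JQ1 4 h and 11137 of 29586573 in JQ1 20 h. The log2 fold change was 0.17 (counting interval 0.13 to 0.21), 0.39 (0.35 to 0.43), 0.63 (0.60 to 0.67) and 0.72 (0.68 to 0.75) at 1, 2, 4 and 20 h, which was 0.71, 1.04, 1.44 and 1.31 above the median of all genes. Between 93.4% and 96.3% of tested genes had a lower value at each time. The adjusted p-value in edgeR was 0.0544. It passed under each of the 5 other scalings (0.0212 to 0.0343), without the JQ1 1 h library (0.0211) and without the JQ1 20 h library (0.0396). It did not pass without the JQ1 2 h (0.0897) or 4 h (0.118) library, without the DMSO library of 1 h (0.210) or 20 h (0.225), or with treatment duration as a block (0.248). In the newer annotation, 42 bases of its exons overlap those of Zw on the other strand, and the use of strand in the counting was not stated.

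hop (FBgn0004864, chromosome X) encodes the only Janus kinase of the fly. It had 2695 and 2776 scaled counts in DMSO and 1633, 1738.1, 1544 and 1677 in JQ1 at 1, 2, 4 and 20 h. The lower level was thus present in the 1 h library, and the 4 JQ1 libraries differed little among themselves (1648 ± 81.8; SD, n = 4). The log2 fold change ran from -0.83 at 4 h to -0.65 at 2 h. It stood 0.20 below the median of all genes at 1 h, 0.11 below it at 20 h, and within 0.02 of it at 2 and 4 h. The adjusted p-value in edgeR was 0.00767, and 0.395 with TMM and 0.593 with DESeq2 size factors.

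Stat92E (FBgn0016917, chromosome 3R) encodes the only STAT transcription factor of the fly. It was at 24147 and 24044 scaled counts in DMSO, 14208 in JQ1 1 h, 12070 in 2 h, 11221 in 4 h and 10225 in 20 h. The groups did not overlap, and on this scale each later JQ1 library was below the one before. In percent of the DMSO mean, these levels were 59.0%, 50.1%, 46.6% and 42.4%, and the log2 fold changes were -0.76, -0.997, -1.10 and -1.24. They were 0.22, 0.35, 0.30 and 0.65 below the median of all genes, a distance that a change of scaling leaves almost as it is. Its sign was the same with a pseudocount of 5, with either DMSO library as control and with a minimum of 50 scaled counts. The adjusted p-value in edgeR was 0.00537. With TMM (0.104) and DESeq2 size factors (0.125) the call was lost, with log2 fold changes of -0.43 and -0.38. The fall from 2 to 4 h was not kept there either. The log2 fold changes at these times were -0.393 and -0.392 with TMM, and -0.359 and -0.316 with DESeq2 size factors.

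Among the inhibitors, Socs36E (FBgn0041184, chromosome 2L) encodes a SOCS-box protein that is itself induced by Stat92E and is widely read as a reporter of the pathway in flies. Its scaled counts were 2052 and 2139 in DMSO, 1554 in JQ1 1 h, 1608 in 2 h, 1411 in 4 h and 801 in 20 h. All JQ1 libraries were below both DMSO libraries, and that of 20 h was far below the others. Up to 4 h the log2 fold change was -0.43, -0.38 and -0.57, a decrease smaller than that of the median gene by 0.11, 0.26 and 0.24, and TMM and DESeq2 size factors turned these 3 values positive (0.10 to 0.26). At 20 h it was -1.39 (counting interval -1.498 to -1.274), which was 0.80 below the median of all genes and negative under every scaling. The adjusted p-value over all 6 libraries was 0.0963 in edgeR. Without the JQ1 20 h library it was 0.0104, with a log2 fold change of -0.46. In that fit the median of all tested genes was -0.665, and 5586 of 8690 genes were called lower.

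Su(var)2-10 (FBgn0003612, chromosome 2R) encodes the fly PIAS protein, a SUMO ligase that restrains Stat92E and also acts in chromatin. It had 5018 and 5401 scaled counts in DMSO and 2957, 3321, 3432 and 3635 in JQ1 at 1, 2, 4 and 20 h. All JQ1 libraries lay below both DMSO libraries. In contrast to Stat92E, its lowest level was that of 1 h, at 56.8% of DMSO, and the level at 20 h was 69.8%. The distance from the median of all genes accordingly went from -0.27 at 1 h to 0.21 at 4 h and 0.07 at 20 h, with a value of -0.0030 at 2 h whose sign depended on the control library and the filter. The adjusted p-value in edgeR was 0.0106, 0.0512 with total counts as the scale, 0.804 with TMM and 0.991 with DESeq2 size factors. With the latter the log2 fold changes at 4 and 20 h were 0.19 and 0.04, and with TMM that at 4 h was 0.11.

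**Figure D2:**
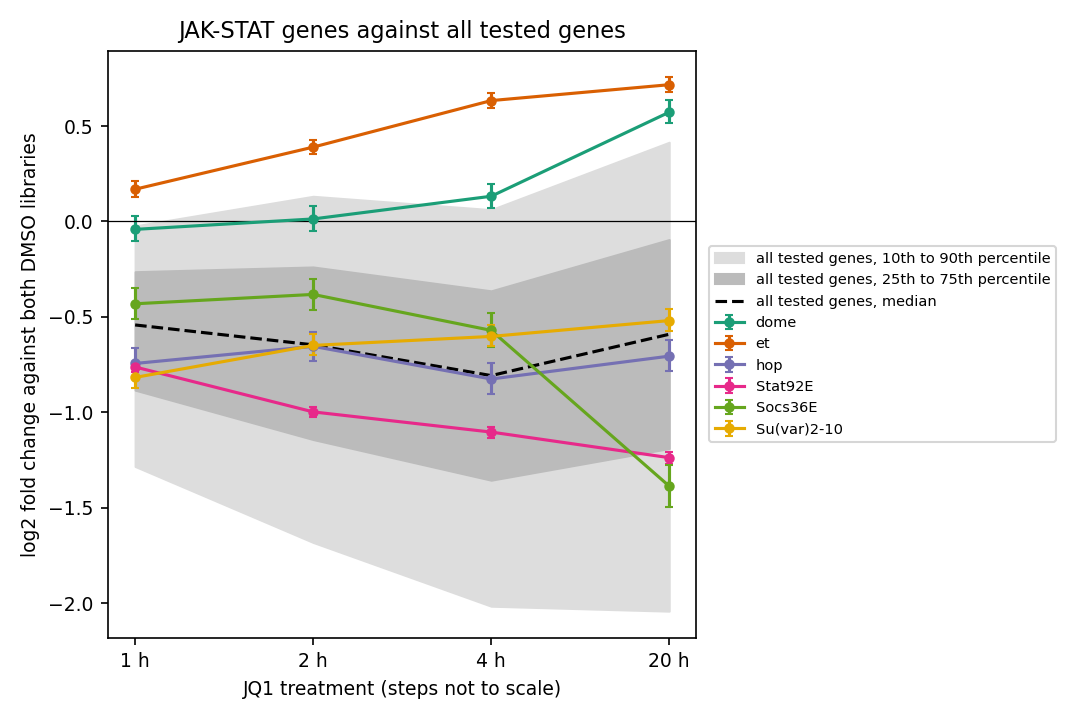
Log2 fold change against both DMSO libraries (y axis) of the 6 JAK-STAT genes at each JQ1 time (x axis, steps not to scale), with 95% counting intervals, over the spread of all tested genes (grey bands, dashed median). The et line stays above the 90th percentile of all genes at each time and the dome line at 4 and 20 h, while Stat92E stays below the median and Socs36E crosses it between 4 and 20 h (0.24 above, then 0.80 below).

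At single times, genes were counted as past 2-fold below 50% or above 200% of the DMSO level. At 1 and 2 h 0 of the 6 JAK-STAT genes were below 50%, where all tested genes gave 19.4% and 31.1%. At 4 h Stat92E was the only one (39.5% of all tested genes), and at 20 h Stat92E and Socs36E were 2 (31.4%). None of the 6 exceeded 200% at any time, where all tested genes gave 0.875%, 2.36%, 2.00% and 4.40% in the order of the times. Each such count comes from a single JQ1 library, and the times share their DMSO libraries.

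Because a ratio of reads of 2 genes within a library does not depend on the scaling, the balance between the genes was also read in that way. Per Stat92E read there were 0.281 and 0.283 et reads in DMSO, and 0.537, 0.737, 0.938 and 1.09 in JQ1 at 1, 2, 4 and 20 h. The dome reads per Stat92E read were 0.117 and 0.123 in DMSO, and 0.198, 0.242, 0.282 and 0.421 in JQ1. In both ratios every JQ1 library was above both DMSO libraries, and the JQ1 mean was 2.83-fold that of DMSO for et and 2.29-fold for dome (geometric means). An exact permutation test over the 15 arrangements of the libraries (two-sided) gave p = 0.0667 for each, the smallest value this design allows, or 0.133 adjusted over the 6 ratios computed. These 6 ratios were not among the planned comparisons. As single genes, Stat92E was already below both DMSO libraries in every JQ1 library and et above both. The p-values of the ratios are thus no evidence separate from the single genes.

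The kinase and the inhibitor were set against the receptor in the same way. There were 0.955 and 0.938 hop reads per dome read in DMSO, and 0.581, 0.596, 0.487 and 0.39 in JQ1 (p = 0.0667, exact permutation test, 0.133 adjusted). The Socs36E reads per dome read were 0.727 and 0.723 in DMSO and 0.553, 0.551, 0.445 and 0.186 in JQ1, with p = 0.267 in the exact permutation test although the groups did not overlap. Between the receptor-type genes, et reads per dome read were 2.40 and 2.29 in DMSO and 2.71, 3.05, 3.32 and 2.59 in JQ1 (p = 0.133, exact permutation test). That ratio was thus highest at 4 h. The Socs36E reads per Stat92E read were 0.0850 and 0.0890 in DMSO, between 0.109 and 0.133 in JQ1 at 1 to 4 h, and 0.0784 at 20 h, so this ratio had no common direction (p = 0.333, exact permutation test).

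**Figure D3:**
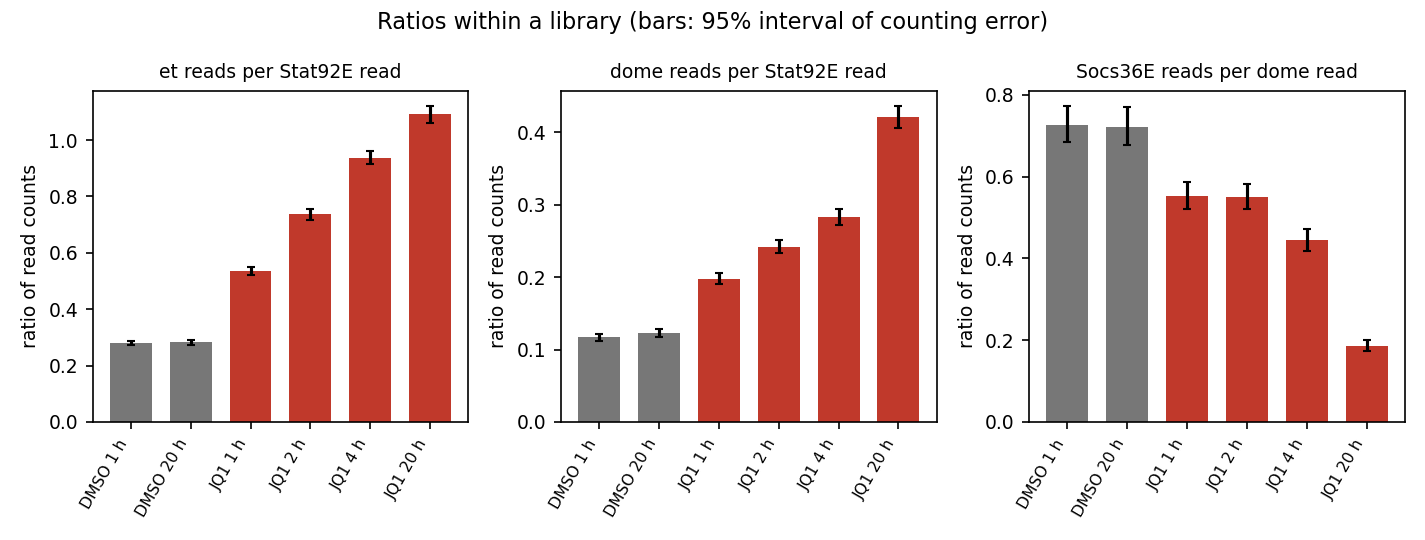
Ratio of read counts within each library (y axis) for et per Stat92E, dome per Stat92E and Socs36E per dome, with DMSO in grey, JQ1 in red and 95% intervals of counting error. The first goes from 0.281 in DMSO 1 h to 1.09 in JQ1 20 h, the last from 0.727 to 0.186.

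The rest of the pathway was examined with lists of ligands, other regulators and reported target genes. The ligand genes were low. Of upd1 there were 0 and 3 reads in the DMSO libraries and 1, 2, 0 and 1 in JQ1, too few to compare. The scaled counts of upd2 were 45.7 and 55.9 in DMSO and 39.6, 43.4, 32.2 and 23.03 in JQ1, and those of upd3, the ligand made by blood cells upon stress, were 297 and 308 in DMSO and 209, 200.1, 161 and 108 in JQ1. On 23 to 51 reads a library, the counting interval of the upd2 log2 fold change included 0 at 1 h (-0.90 to 0.19) and 2 h (-0.75 to 0.30). On this scale upd2 and upd3 were below both DMSO libraries in each JQ1 library, as were 67.9% of all tested genes. Both were lowest at 20 h, at 45.4% and 35.7% of DMSO. Neither was called in edgeR, with adjusted p-values of 0.185 and 0.0583 (1 of 2 at an unadjusted p under 0.05, and upd3 was called lower by DESeq2). Without the JQ1 1 h or the JQ1 20 h library, upd3 was also called lower in edgeR. It was not called without the JQ1 2 h (adjusted p-value 0.0853) or 4 h (0.12) library. Nor was it called with the sum over the index (0.08), an index of 500 genes (0.168) or total counts (0.264). With TMM (0.615) and DESeq2 size factors (0.682) its log2 fold change was -0.243 and -0.197. That of upd2 was positive there, at 0.043 and 0.0891.

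Of 9 other regulators, all tested, 7 fell and 0 rose by edgeR, with a median log2 fold change of -0.64 against -0.63 over all genes, of which 44.3% were called lower and 1.43% higher. They were Socs16D and Socs44A, relatives of Socs36E; BRWD3 and E(bx), chromatin proteins linked to the pathway by fly genetics; Stam and Hrs, which sort receptors in endosomes; and apt, a transcription factor gene that limits Stat92E in border cells. E(bx), the large subunit of the NURF remodeller, was at 16891 and 18273 scaled counts in DMSO and 7477, 7751, 6921 and 8698 in JQ1 (adjusted p-value 0.00457 in edgeR), and was the only 1 of the 7 still called with TMM and DESeq2 size factors (0.0253 and 0.0342). The apt transcript had the lowest late level, with 1231 and 1040 scaled counts in DMSO and 615, 401, 323 and 141 in JQ1 (adjusted p-value 0.0335 in edgeR, 0.187 with TMM). The 7 calls went to 3 (Socs44A, E(bx) and Hrs) with an index of 500 genes or total counts as the scale, to 4 without the JQ1 2 h or the JQ1 4 h library, and to 0 without either DMSO library. With TMM and DESeq2 size factors the values of BRWD3 (0.06 and 0.11) and Stam (0.04 and 0.09) were positive. Exons of BRWD3 and Socs44A overlap those of other genes on the opposite strand, by 412 and 123 bases in the newer annotation.

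The other 2 regulators were not called. ken, which encodes a repressor of some Stat92E targets, had 2844 and 2998 scaled counts in DMSO and 3295, 3361, 2507 and 1756 in JQ1, above DMSO at 1 and 2 h and below it at 4 and 20 h. asrij, an endosomal protein gene of blood cells, had 1303 and 1313 in DMSO and 919, 667, 535 and 1279 in JQ1. It was thus lowest at 4 h, at 40.9% of DMSO, and at 97.8% at 20 h.

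Of 11 target genes, 8 were tested, 3 fell and 0 rose in edgeR, and their median log2 fold change was -0.22 against -0.63 over all genes. The share that fell was not above that of all tested genes (44.3% lower and 1.43% higher). Those that fell were zfh1 (-0.44 ± 0.14; SE, adjusted p-value 0.0381), Diap1 (-0.57 ± 0.20; SE, 0.0497) and Mmp1 (-0.66 ± 0.17; SE, 0.0208), all near the shift of all genes, and none was called with TMM, DESeq2 size factors, total counts or an index of 500 genes, or without the JQ1 2 h library or either DMSO library. The call of Diap1 was also lost in edgeR with no filter (adjusted p-value 0.0528) and without the JQ1 1 h (0.0819) or 4 h (0.106) library. With TMM and DESeq2 size factors the sign of zfh1 (0.16 and 0.21) and Diap1 (0.01 and 0.07) was positive. Diap1, the caspase inhibitor gene, was lowest at 1 h, at 54.9% of DMSO, and at 88.8% at 20 h. Exons of Diap1, zfh1, Mmp1 and Tep2 overlap those of genes on the opposite strand, by 347, 315, 284 and 95 bases.

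The target gene vir-1, which is induced by virus infection through the pathway, hardly differed between libraries on this scale, with 27379 and 27336 scaled counts in DMSO and 26907, 27669, 27448 and 27502 in JQ1. It was not among the 100 index genes. Its log2 fold change was 0.0013 ± 0.08 (SE), and with TMM and DESeq2 size factors it was called higher, at 0.59 (adjusted p-value 0.0302 in edgeR) and 0.64 (0.0320). The thioester protein gene Tep2, which takes part in immune defence, had 9095 and 9542 scaled counts in DMSO and 8157, 9195, 9863 and 21653 in JQ1, so that it was past 2-fold at 20 h and in no other JQ1 library. Of the stress genes, TotA was at 107 to 121 in all libraries, and TotC, TotM and TotX were too low to test.

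**Figure D4:**
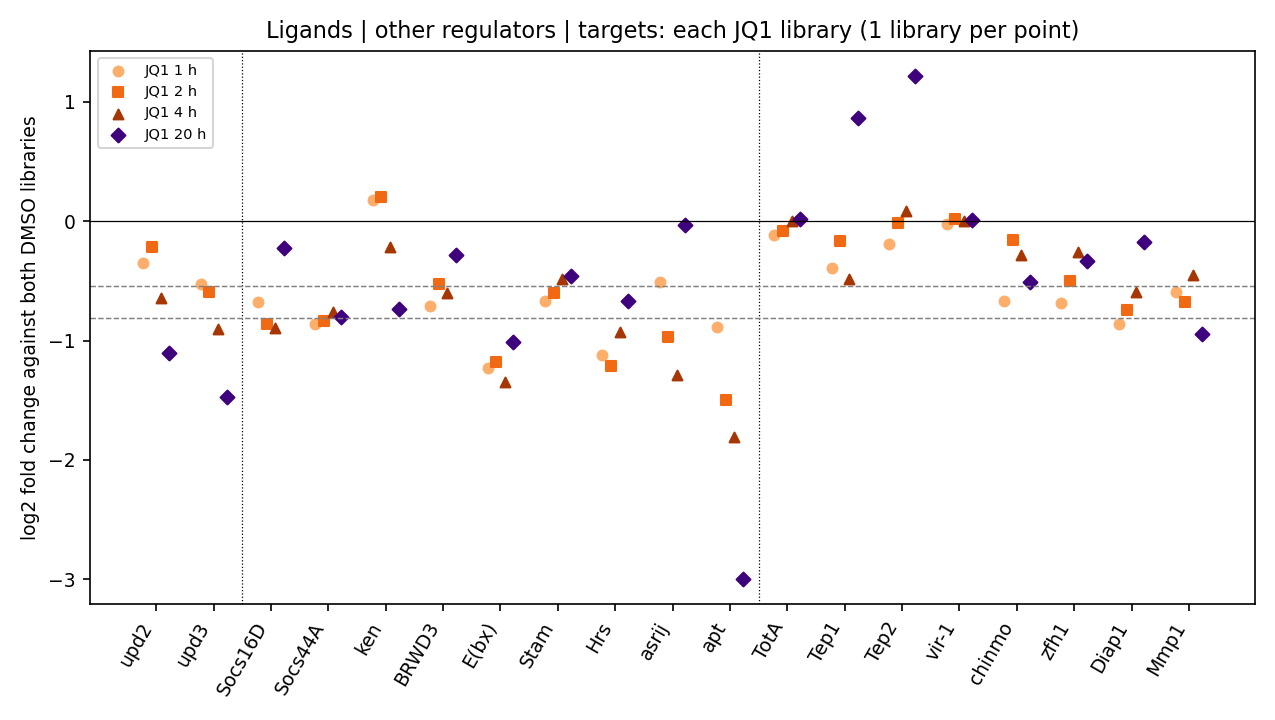
Log2 fold change against both DMSO libraries (y axis) of the tested ligand, regulator and target genes (x axis, parted by dotted lines) at each JQ1 time, with 1 library per point and the range of the all-gene medians between dashed lines. The 20 h points of apt (-3.00) and Tep2 (1.22) lie at opposite ends, and vir-1 stays at 0.

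For the 3 JAK-STAT genes with the largest spread over the 6 libraries, the genes of most similar course were listed by the Euclidean distance of centred log2 scaled counts. For Stat92E they were mod(mdg4) (distance 0.0796), Kdm3 (0.0993) and IntS4 (0.108), and mod(mdg4) had 11599 and 12007 scaled counts in DMSO and 6672, 5983, 5604 and 4975 in JQ1. For Socs36E the nearest gene with a symbol was Nrt (0.123), at 820 and 876 in DMSO and 658, 607, 572 and 328 in JQ1. For hop they were CG10543 (0.0561), CG9636 (0.0751) and Cfp1 (0.0811). The search covered the 7339 other genes whose mean scaled count was 50 or more, and with 6 libraries such closeness is a description only.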

How the data were processed

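RNA-seq of 6 S2-DRSC libraries was analysed. Per the study's methods and the labels, the authors aligned single-end reads with TopHat to release 5 of the fly genome with Ensembl release 64 gene models and deposited raw read counts per gene made with HTSeq-count. Versions and the strand setting were not given in the sources used here. The 5 lines that name no gene (21.9% to 27.3% of records) were left out.

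The study scaled on the 100 genes most abundant in the control. Its formula was not stated. Here the factor was the median ratio of these genes to their geometric mean. Genes averaging 10 or more scaled counts were tested with edgeR 4.0.16 (R 4.3.3, quasi-likelihood, two-sided, Benjamini-Hochberg over all 8690 genes, threshold 0.05), with 4 JQ1 against 2 DMSO libraries. Spread within JQ1 includes change with time. The fit was also run on simulated counts. These held no shift of most genes and no change with time within JQ1, so they do not bear on how the fit handles either. Fold changes at single times were log2 of (JQ1 + 1) over (mean DMSO + 1), with exact binomial 95% intervals for counting error only, on reads without molecular identifiers. Symbols, chromosomes and exonic lengths came from Ensembl release 115 by identifier (13524 of 14869 matched). Since its genome is release 6, no coordinates are given. No sequence was used here. The members and lists were chosen with earlier results of these data known.

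The members are named in all cases, and other pathway genes if called, past 2-fold at a JQ1 time, or ligands. ken, Tep1, TotA, vir-1, Hml and the untested genes are named outside this rule, chosen after their values were seen. The 6 ratios between genes were not among the planned comparisons. Alternatives were 5 scalings, 2 filters, DESeq2 1.42.0, a pseudocount of 5, a single DMSO library as control, treatment duration as a replicate block, and leaving out each library.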

Additional observations from a re-analysis of the deposited data

Results flagged for a closer look

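Among the 25 tested genes of the pathway, the JQ1 20 h library stood apart from the other JQ1 libraries in Tep1 and Tep2, where the gap to the nearest library was 0.841 and 0.874 of the whole range of the group. For replicates of a single condition, chance places about 1 in 20 groups past the critical value for 4 libraries. The JQ1 libraries differ in treatment time, so that rate does not apply to them. Tep1 had 492 scaled counts in JQ1 20 h and 192 to 240.2 in the other JQ1 libraries.

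In 3 genes the JQ1 libraries of 1 and 20 h lay on opposite sides of the DMSO library of the same duration, each beyond its counting interval, and the difference between the times was not tested. For ken the log2 fold change was 0.21 at 1 h and -0.77 at 20 h. For Tep1 it was -0.35 and 0.82, and for Tep2 -0.16 and 1.18. These values are on the scale of the 100 index genes, and other scalings were not applied to them. Against both DMSO libraries, the distance from the median of all genes was 0.15 at 1 h and 1.46 at 20 h for Tep1. It was 0.35 and 1.81 for Tep2, both times above the median as in Tep1, and 0.72 and -0.14 for ken. With 1 library per time these values have no replicate check.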

How the results depend on the processing

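The calls of the JAK-STAT genes depended on the scaling. Genes called lower numbered 3 with the sum over the index, an index of 500 genes, no filter, a minimum of 50 scaled counts or DESeq2, 2 with total counts, and 0 with TMM or DESeq2 size factors. Genes called higher numbered 1 (et) with the sum over the index, an index of 500 genes, total counts or the DESeq2 test, and 2 (dome and et) with TMM or DESeq2 size factors. The log2 fold change of Socs36E reversed to 0.0030 with DESeq2 size factors. Over all genes, edgeR called 565 lower and 436 higher with TMM, and 482 and 460 with DESeq2 size factors, against 3853 and 124. It called 3865 and 130 with the sum over the index, 2248 and 176 with an index of 500 genes, and 1895 and 186 with total counts. The numbers were 3591 and 121 of 12658 genes with no filter, and 3737 and 89 of 7340 with a minimum of 50. The DESeq2 test called 4344 and 166. With treatment duration as a replicate block, which leaves 4 libraries, 0 JAK-STAT genes were called lower and 0 higher, as were 0 of all genes (2642 at an unadjusted p under 0.05), while 4 of the 6 had an unadjusted p under 0.05 and the adjusted p-values ran from 0.143 for Stat92E to 0.470 for dome. Leaving out 1 JQ1 library at a time gave 3 or 4 JAK-STAT genes called lower and 0 or 1 higher. Over the 8690 tested genes these fits called 2202 to 5586 lower and 60 to 214 higher. Without either DMSO library 0 of all genes were called (3212 and 2877 at an unadjusted p under 0.05 without that of 1 h and of 20 h) and 3 JAK-STAT genes had an unadjusted p under 0.05. In those fits the lone DMSO library is assumed to vary like the JQ1 group. Without the JQ1 20 h library Socs36E joined the genes called lower, as were 5586 of the 8690 tested genes. Its log2 fold change there was -0.46, and the median of all tested genes was -0.665. Each gene's distance from the all-gene median is hardly altered by a scaling and was also recomputed with a pseudocount of 5, each single control and a minimum of 50 scaled counts. It kept its sign in dome, et, Stat92E and Socs36E at all times, with Stat92E at 2 h from -0.38 to -0.29, and changed sign in hop at 2 h (-0.02 to 0.05) and 4 h (-0.04 to 0.02) and in Su(var)2-10 at 2 h (-0.02 to 0.06). With 1 library per time, changes between times cannot be separated from differences between libraries.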
